A study of Mus musculus with 8 samples.

Results

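A set of 10 genes of sarcoplasmic reticulum calcium handling were followed in mouse quadriceps RNA: the calcium pumps Atp2a1 and Atp2a2, their small inhibitors Pln and Sln, the calcium buffers Casq1, Casq2 and Pvalb, the release channel Ryr1, its voltage sensor Cacna1s and the junctional protein Jph1. The 10 genes were found by symbol among the 43239 gene names of the deposited tables, and 9 of them had a value above 0 in every library. The tissue came from female mice aged 6 months, with 1 library per mouse, 4 from mice labelled wild type (WT) and 4 from mice labelled Mss51-/- (KO). Strain, the extent of the deletion and the design of the allele are not given in the sources used here. All values are FPKM, fragments scaled to transcript length and to the library's mapped fragments, so levels can be compared between genes.

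In skeletal muscle the action potential runs down the T-tubules and moves the voltage sensor, which opens the ryanodine receptor and lets calcium out of the sarcoplasmic reticulum. Calcium is then pumped back by the SERCA ATPases and held in the lumen by calsequestrin. Fast fibres use SERCA1, the calsequestrin CASQ1 and the cytosolic buffer parvalbumin, which speeds relaxation. Slow fibres use SERCA2a and also hold CASQ2 and phospholamban.

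The labels were first checked on the targeted gene. Mss51 stood at 22.9, 37.0, 27.5 and 24.8 FPKM in the libraries labelled WT and at 340, 201, 216 and 207 FPKM in those labelled KO, so it was higher in every library labelled KO. This goes against a loss of the transcript under the KO label. With the design of the allele not given, the RNA level cannot show whether the labels hold or whether the protein is lost. Each direction below is that of the labels alone. Of 5 general skeletal muscle markers, 4 were found, and the muscle actin Acta1 had no entry under that name. The highest of those found, creatine kinase, Ckm, stood between 9230 and 12716 FPKM, a level that fits muscle tissue. Myh4, a fast myosin, was listed at 0 in all 8 libraries, which can be a failed estimate, so its absence cannot be read from it. Tnnt3, a fast troponin, was likewise listed at 0 in 4 libraries and at 8888 FPKM in KO replicate 4. KO replicate 1 stood apart from the other libraries labelled KO in most of the results below. Many of these are therefore also given without it. KO replicate 1 was singled out by these same values, so p-values without it describe the split and are no independent support.

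For the calcium buffers, whose fast and slow forms lay on opposite sides of 0 below, the 250 bases before the RefSeq start site (GRCm38.p6, RefSeq promoter table, which held 7 of the 10 genes) are shown here. Capitals mark an E-box, CANNTG, or a match to the MEF2 motif, searched on both strands. No window shown overlapped an exon of GENCODE M21.
Casq1, chr1:172219896-172220145, minus strand: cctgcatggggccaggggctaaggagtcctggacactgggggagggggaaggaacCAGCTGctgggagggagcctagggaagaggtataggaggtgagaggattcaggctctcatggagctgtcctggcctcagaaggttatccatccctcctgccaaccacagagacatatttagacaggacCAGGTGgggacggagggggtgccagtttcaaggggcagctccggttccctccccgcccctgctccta
Casq2, chr3:102086165-102086414, plus strand: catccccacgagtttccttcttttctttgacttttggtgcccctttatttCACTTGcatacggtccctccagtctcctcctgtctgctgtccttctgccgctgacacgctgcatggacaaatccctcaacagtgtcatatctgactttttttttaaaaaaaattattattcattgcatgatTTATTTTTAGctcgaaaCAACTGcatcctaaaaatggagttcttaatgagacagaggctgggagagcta
Pvalb, chr15:78206401-78206650, minus strand: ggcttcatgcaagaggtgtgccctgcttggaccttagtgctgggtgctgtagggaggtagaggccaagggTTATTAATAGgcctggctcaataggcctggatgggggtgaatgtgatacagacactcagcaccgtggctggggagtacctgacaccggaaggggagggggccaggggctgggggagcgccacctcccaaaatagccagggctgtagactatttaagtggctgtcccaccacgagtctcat
E-boxes stood in 66.2% of the 32851 mouse windows of this length that were searched, and a MEF2 match in 2.92%. The Casq2 window held 2 E-boxes and the MEF2 match TTATTTTTAG, which ends 60 bases before the start site, with no overlap between them. The Casq1 window held 2 E-boxes and no MEF2 match, and the Pvalb window shown held the MEF2 match TTATTAATAG and no E-box. The table has a second Pvalb start site, whose window (chr15:78204238-78204487, not shown) held 1 E-box and no MEF2 match. These matches describe letters only.

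In the libraries labelled KO, apart from replicate 1, Casq2 and Pln stood above every WT library, while the ranges of the slow pump overlapped. Over all 4 libraries labelled KO, replicate 1 included, Casq2 and Pln averaged 2.18 and 2.04 times the WT mean. Sln averaged 1.88 times, against 1.10 times for Atp2a2. The fast buffers Casq1 and Pvalb averaged 0.876 and 0.850 times, and the release genes Ryr1, Cacna1s and Jph1 0.857, 0.852 and 0.906 times. None of the 9 tested genes passed the adjusted test (limma with Benjamini-Hochberg adjustment over 11878 genes, threshold 0.05), which 0.0505% of all genes passed. At an unadjusted p under 0.05, 4 of the 9 stood apart (Casq2 and Pln higher, Ryr1 and Cacna1s lower), against 10.3% of all genes, 7.5% higher and 2.76% lower. Without KO replicate 1, 2 of the 9 passed the adjusted test as higher, Casq2 and Pln, where 1.04% of all genes passed and 0.942% did so as higher.

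Among the pumps, Atp2a2 (chr5:122448381-122502333) encodes SERCA2, the pump of slow fibres and heart. Its FPKM was 86.7, 55.4, 113 and 74.5 in WT replicates 1 to 4 and 64.7, 85.8, 113 and 98.6 in KO replicates 1 to 4. The groups overlapped almost entirely, and the highest library of each group had the same level. The means were 82.3 ± 24.1 and 90.5 ± 20.5 FPKM (SD, n = 4), with a log2 fold change of 0.15 (SE 0.23, adjusted p = 0.855), KO minus WT on the log2(FPKM + 0.5) scale. The sign was not stable: the log2 fold change was -0.02 without WT replicate 2 and -0.06 after rescaling to an equal sum of named genes.

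Atp2a1, which encodes SERCA1, the pump of fast fibres, gave no usable level. It was listed at 0 in 7 libraries and at 6599 FPKM in KO replicate 2. Rabep2, which shares its locus in the tables (mm10, chr7:126428759-126463108), was at 0 in the same 7 libraries and at 3.99 FPKM in KO replicate 2. Such a 0 for the main pump of fast muscle can be a failed estimate, so neither a fold nor a test is given.

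Phospholamban, Pln (chr10:53273439-53380653), a small membrane protein that lowers the calcium affinity of SERCA until it is phosphorylated, was the scarcest of the genes. It stood at 2.19, 1.79, 2.36 and 1.83 FPKM in WT replicates 1 to 4 and at 2.28, 5.16, 3.48 and 5.77 FPKM in KO replicates 1 to 4. KO replicate 1 lay inside the WT range and the other 3 lay above every WT library. The means were 2.04 ± 0.278 and 4.17 ± 1.59 FPKM (SD, n = 4), or 4.80 ± 1.18 without KO replicate 1 (n = 3). The log2 fold change was 0.81 (SE 0.24, adjusted p = 0.353), and 1.04 (SE 0.18, adjusted p = 0.0442) without KO replicate 1. Pln lies on the plus strand within the span of Cep85l on the minus strand. The locus printed above is wider than Pln, whose RefSeq start site is at 53337686. With no strand setting given, reads of Pln and Cep85l may be shared. Cep85l stood between 7.04 and 22.6 FPKM under the WT label and between 10.8 and 17.9 under the KO label (log2 fold change 0.07).

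Sarcolipin, Sln (chr9:53850251-53853844), the other small SERCA inhibitor, which lets the pump burn ATP without moving calcium, varied most, by 5.46 times from the lowest to the highest of the 8 libraries. It stood at 17.5, 14.2, 38.6 and 24.1 FPKM in WT replicates 1 to 4 and at 18.9, 33.8, 77.7 and 46.6 FPKM in KO replicates 1 to 4. WT replicate 3 exceeded KO replicates 1 and 2, so the groups overlapped. The means were 23.6 ± 10.8 and 44.3 ± 25.0 FPKM (SD, n = 4), and the log2 fold change was 0.82 (SE 0.43, adjusted p = 0.552). Without KO replicate 1 it was 1.16 (adjusted p = 0.229), and without KO replicate 3, the highest library, it was 0.49 (adjusted p = 0.785).

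**Figure D1:**
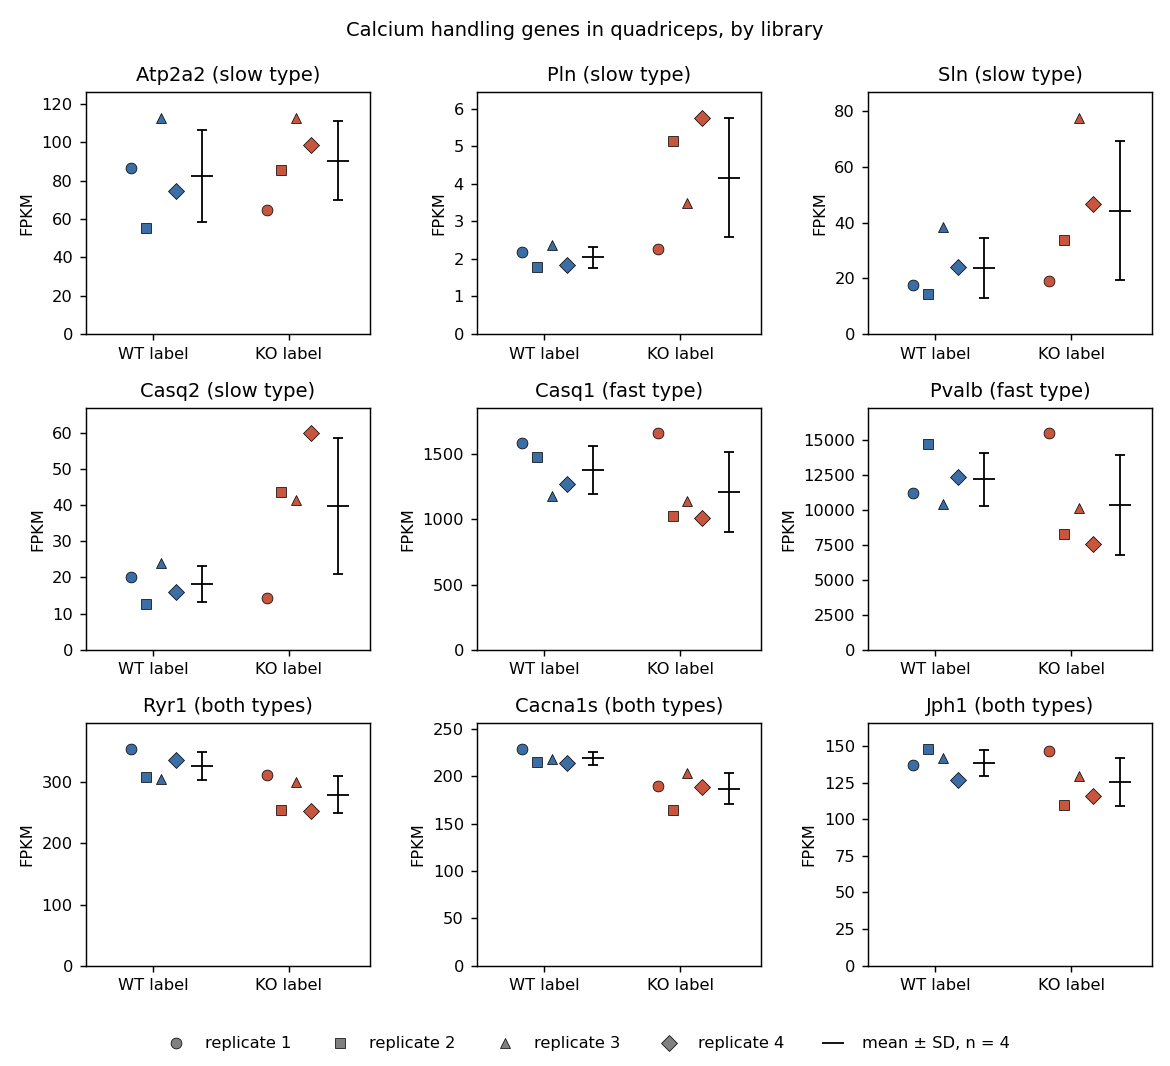
FPKM of the 9 genes with a value above 0 in every library (vertical axes, from 0) in the 4 libraries labelled WT (blue) and the 4 labelled KO (red), with the replicate given by the symbol and the bars giving mean ± SD. The circle of KO replicate 1 lies near or inside the WT range for Casq2, Pln, Sln, Casq1 and Pvalb, and for Cacna1s all 4 red points (164 to 204 FPKM) lie below the blue ones (214 to 229 FPKM).

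Of the buffers, Casq2 (chr3:102085917-102206266), a calsequestrin of slow fibres and heart, had the largest fold change of the 9 genes. It stood at 20.2, 12.7, 24.0 and 15.9 FPKM in WT replicates 1 to 4 and at 14.2, 43.7, 41.3 and 59.8 FPKM in KO replicates 1 to 4. The libraries of KO replicates 2 to 4 each exceeded every WT library, whereas KO replicate 1 was second lowest of all 8. The means were 18.2 ± 4.93 and 39.7 ± 18.9 FPKM (SD, n = 4), or 48.2 ± 10.05 without KO replicate 1 (n = 3). The log2 fold change was 0.98 (SE 0.40, adjusted p = 0.453), and 1.40 (SE 0.22, adjusted p = 0.0295) without KO replicate 1.

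Casq1 (chr1:172209877-172219868), the main calsequestrin of fast fibres, was far more abundant than Casq2. It stood at 1585, 1474, 1180 and 1274 FPKM in WT replicates 1 to 4 and at 1658, 1022, 1142 and 1011 FPKM in KO replicates 1 to 4. KO replicate 1 was the highest of all libraries and the other 3 labelled KO were the lowest. The log2 fold change was -0.21 (SE 0.17, adjusted p = 0.727), and -0.37 (SE 0.12, adjusted p = 0.219) without KO replicate 1.

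Parvalbumin, Pvalb (chr15:78191114-78206400), was the most abundant of the genes and showed the same order. It stood at 11197, 14730, 10436 and 12361 FPKM in WT replicates 1 to 4 and at 15461, 8288, 10120 and 7537 FPKM in KO replicates 1 to 4. Again KO replicate 1 was highest and KO replicates 2 to 4 were lowest. The means were 12181 ± 1875 and 10351 ± 3575 FPKM (SD, n = 4), with a log2 fold change of -0.28 (SE 0.23, adjusted p = 0.727), and -0.49 (SE 0.16, adjusted p = 0.225) without KO replicate 1.

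The release genes had log2 fold changes just below 0 and the least spread over the libraries. Cacna1s (chr1:136052750-136119822), the pore subunit of the dihydropyridine receptor that senses voltage, was the only one of the 9 genes whose groups did not overlap, as was the case for 1.61% of all genes in this direction and 3.89% in the other. It stood at 229, 215, 219 and 214 FPKM in WT replicates 1 to 4 and at 190, 164, 204 and 189 FPKM in KO replicates 1 to 4. The means were 219 ± 6.74 and 187 ± 16.3 FPKM (SD, n = 4), with a log2 fold change of -0.23 (SE 0.08, unadjusted p = 0.0144, adjusted p = 0.370 in limma). Its value barely moved without KO replicate 1 (-0.24). The predicted gene Gm37759, which shares its locus in the tables, stood between 33.4 and 37.5 FPKM under the WT label and between 28.5 and 37.4 under the KO label.

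Ryr1 (chr7:29003339-29125171), the calcium release channel, stood at 354, 309, 306 and 337 FPKM in WT replicates 1 to 4 and at 311, 255, 300 and 253 FPKM in KO replicates 1 to 4. KO replicates 2 to 4 lay below every WT library and KO replicate 1 lay within their range. The log2 fold change was -0.23 (SE 0.09, unadjusted p = 0.04001, adjusted p = 0.454 in limma). Jph1 (chr1:16898185-17097900), a junctophilin that ties the T-tubule to the reticulum, ranged from 127 to 148 FPKM under the WT label and from 110 to 147 under the KO label (-0.15, SE 0.10, adjusted p = 0.656). Leaving out KO replicate 1 gave -0.23 (adjusted p = 0.293), and leaving out KO replicate 2 gave -0.087. It has 4 entries in the tables, of which the other 3 never exceeded 1.26 FPKM.

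Counted by library, Casq2 and Pln were above every WT library in all of KO replicates 2 to 4, as were 9.35% of all genes. Casq1, Pvalb, Ryr1 and Cacna1s were below every WT library in all 3, as were 4.51% of all genes. Under the WT label the slow type genes also shared an order: Atp2a2, Pln, Sln and Casq2 were all lowest in replicate 2 and highest in replicate 3. Pvalb was highest in replicate 2 and lowest in replicate 3. Casq1, the other fast buffer tested, was also lowest in replicate 3 but highest in replicate 1. The slow genes had a median log2 fold change of 0.82, and 1.10 without KO replicate 1, against 0.02 and 0.03 for all genes tested. The medians of the fast buffers were -0.25 and -0.43 in the same order.

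**Figure D2:**
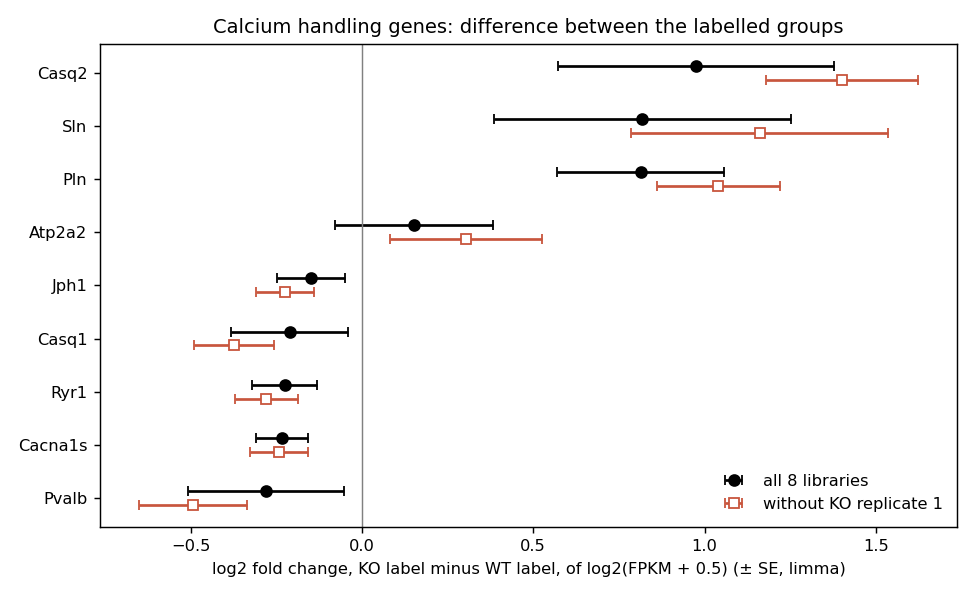
Log2 fold change (KO label minus WT label, horizontal axis, ± SE from limma) of the 9 tested genes, over all 8 libraries (filled circles) and without KO replicate 1 (open squares). Casq2, Sln and Pln lie between 0.81 and 0.98 with all libraries and between 1.04 and 1.40 without KO replicate 1, while Atp2a2 lies at 0.15 and 0.30.

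The levels spanned more than 3 powers of 10. From the highest to the lowest mean FPKM the order was Pvalb, Casq1, Ryr1, Cacna1s, Jph1, Atp2a2, Sln, Casq2 and Pln. Within each library every neighbouring pair kept that order except Sln and Casq2, which stood in it in 5 of 8 libraries. The ranges over the 8 libraries overlapped for that pair, for Jph1 and Atp2a2, and for Atp2a2 and Sln, and not for the other neighbours.

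Ratios within a library do not depend on how the library was scaled, so 5 were compared between the groups by two-sided exact permutation over the 70 ways to assign the libraries. The smallest p this allows is 0.0286. Casq2 FPKM amounted to 1.27%, 0.861%, 2.03% and 1.25% of Casq1 FPKM in WT replicates 1 to 4 and to 0.858%, 4.27%, 3.62% and 5.91% in KO replicates 1 to 4. KO replicate 1 had the lowest share of all 8 and the other 3 the highest. The log2 ratio differed by 1.20 between the groups (exact permutation p = 0.143, adjusted over the 5 ratios 0.238). Without KO replicate 1 it differed by 1.80 (exact permutation p = 0.0286 among 4 against 3, the smallest possible there, adjusted 0.0714). With the other 3 libraries labelled KO the highest of all, leaving out this library fixed that p in advance, so it adds no support.

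The inhibitors were set against the pump they bind. Pln FPKM amounted to 2.58 ± 0.472% of Atp2a2 FPKM under the WT label and 4.61 ± 1.53% under the KO label (SD, n = 4; log2 difference 0.80, exact permutation p = 0.0571, adjusted 0.214). Here KO replicate 2 (6.01%) and KO replicate 4 (5.85%) stood far above the rest, KO replicate 1 (3.52%) just above the WT group, and KO replicate 3 (3.08%) lay inside the WT range of 2.09% to 3.22%. Sln amounted to 28.1 ± 6.42% of Atp2a2 under the WT label and 46.2 ± 16.8% under the KO label (log2 difference 0.68, exact permutation p = 0.0857, adjusted 0.214), and was highest in KO replicate 3 (68.7%).

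The pump against the fast buffer, Atp2a2 to Pvalb, differed by less than the spread between replicates: 0.708 ± 0.297% under the WT label and 0.969 ± 0.385% under the KO label (log2 difference 0.43, exact permutation p = 0.371, adjusted 0.464). The log2 difference was 0.80 without KO replicate 1 (exact permutation p = 0.0857) and 0.16 without WT replicate 2. The voltage sensor against the channel it gates, Cacna1s to Ryr1, was 67.3 ± 3.93% and 67.1 ± 5.80% (log2 difference -0.01, exact permutation p = 0.971).

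A further ratio, chosen after the values were seen and given with no test, was that of Casq2 to Atp2a2. It was 23.3%, 22.9%, 21.3% and 21.4% in WT replicates 1 to 4 and 22.0% in KO replicate 1, although Atp2a2 itself differed 2.04 times among the WT libraries. In KO replicates 2, 3 and 4 it was 50.9%, 36.5% and 60.6%.

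**Figure D3:**
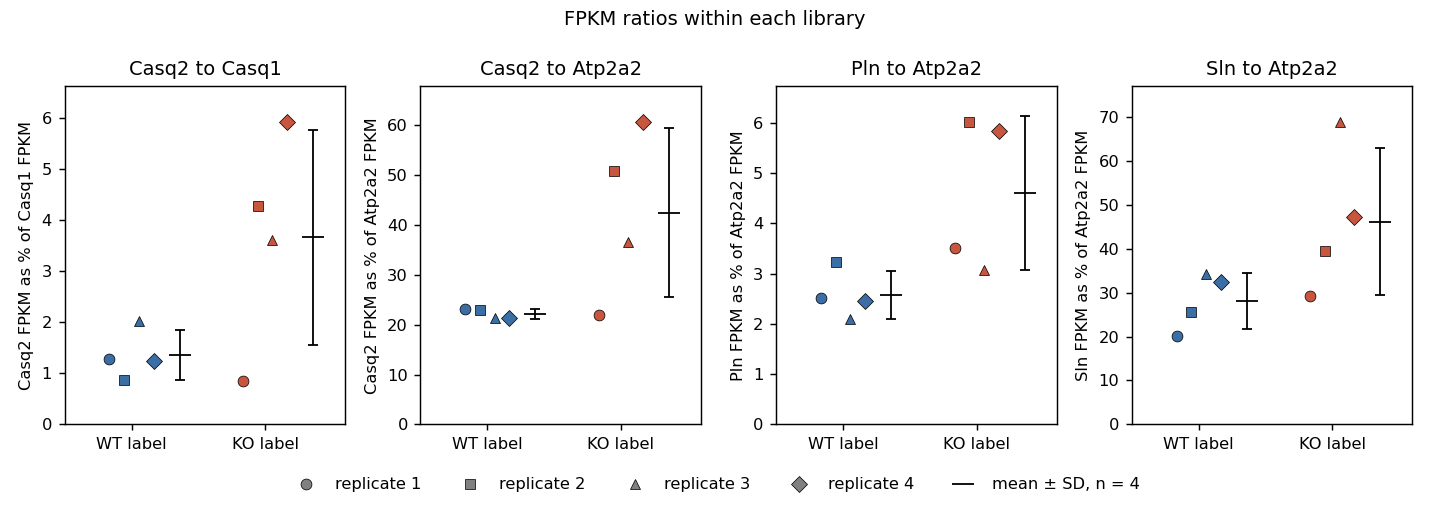
FPKM of 1 gene as a percent of another in the same library (vertical axes, from 0), for Casq2 to Casq1, Casq2 to Atp2a2, Pln to Atp2a2 and Sln to Atp2a2, with symbols by replicate and bars for mean ± SD. Casq2 to Atp2a2 lies between 21.3% and 23.3% in the 4 WT libraries and KO replicate 1, and between 36.5% and 60.6% in KO replicates 2 to 4.

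Of the 9 slow fibre markers, Myl2, Myl3 and Actn2 stood above every WT library in KO replicates 2 to 4, as did Myh2. Casq2, Pln and 9.35% of all genes did the same. Of the other slow markers, Tnnt1 and Tpm3 did so in 1 library and Tnni1, Tnnc1, Myh7 and Myh7b in 0. The summed FPKM of the 9 slow markers, carried mainly by Myl2, Myl3 and Actn2, was 857 to 1368 under the WT label, 1082 in KO replicate 1 and 1865, 2314 and 2039 in KO replicates 2 to 4, and none of the 9 was at 0 in any library. Myh2, the myosin of fast oxidative fibres, stood at 96.6 to 156 FPKM under the WT label, 125 in KO replicate 1 and 391 to 494 in the other 3. Within the slow list the differences were uneven: Myl2 had a log2 fold change of 1.08 and Actn2 of 0.75, against 0.27 for Tnni1, 0.17 for Tnnc1 and -0.09 for Myh7 (joined with Myh6), none past the adjusted test. Without KO replicate 1, Myl2 (1.44, adjusted p = 0.0191), Actn2 (1.08, adjusted p = 0.0127) and Myh2 (1.78, adjusted p = 0.00573) passed it in limma. In that fit 1.04% of all genes passed, 0.942% as higher, and the library was left out because of values like these. Of 9 fast fibre markers, 7 were above 0 in every library, and their sum was 43579 to 58174 under the WT label and 42129 to 57665 under the KO label. Among these 7, Mybpc2, a myosin-binding protein of fast fibres named after its values were seen, did not overlap. It stood at 1077 to 1253 FPKM under the WT label and at 733 to 1006 under the KO label (log2 fold change -0.46, adjusted p = 0.347 in limma). In this direction the groups did not overlap for 1.61% of all genes. Whether the share of fibre types accounts for the calcium genes was not tested, and in whole muscle fewer fibres of a type and less RNA per fibre cannot be told apart.

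Smooth muscle also uses Pln, Atp2a2 and Casq2. The summed FPKM of 7 smooth muscle and pericyte markers was 186 to 224 under the WT label and 170 to 233 under the KO label, with none at 0. Rgs5 made up the largest part of that sum. The members were uneven, with log2 fold changes from -0.35 for Acta2 to 0.29 for Smtn, none past the adjusted test. The 8 cardiac markers summed to 35.0 to 49.9 FPKM under the WT label and 32.1 to 43.6 under the KO label. Most of this was the joined entry of Myh6 and Myh7, with means of 32.2 and 29.9 FPKM. That entry is also on the slow fibre list, so the sum cannot be read as a cardiac level. The atrial genes Nppa and Myl7 were listed at 0 in every library. The sum of 5 erythroid markers, 509 to 1334 FPKM under the WT label, was 3171 in KO replicate 1 and 652 to 1598 in the other KO libraries, and its part in the results was not tested.

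By pattern over the 8 libraries, the genes of most similar course were found by the mean absolute difference of log2 values centred on each gene's mean, among 11693 genes. For Casq2, whose own mean deviation was 0.69, the closest were 3110057O12Rik (difference 0.08), Tm6sf1 (0.08) and the mitochondrial transhydrogenase Nnt (0.15). For Pln they were Lrrn1 (0.11), Iqsec2 (0.12) and Hspa4l (0.13). For Atp2a2, whose mean deviation was 0.29, they were Zdhhc23 (0.05), Gm5091 (0.10) and the slow troponin Tnni1 (0.11), and for Pvalb the glycerol phosphate dehydrogenase Gpd1 (0.08), 9630033F20Rik (0.09) and Tspan8 (0.09). The lists of Casq2, Pln and Atp2a2 held no gene in common, but lists of 3 genes are too short to show whether the patterns differ.

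A wider list of 81 other calcium genes, of which 79 were found and 71 tested, was read from the same fit. No member passed the adjusted test in either direction (limma), 8 were higher and 5 lower at an unadjusted p under 0.05, and these 13 are 18.3% of the list, against 10.3% of all genes. The median log2 fold change was -0.07, against 0.02 for all genes tested, with 26 members above 0 and 45 below. Of all genes tested, 6464 were above 0 and 5414 below. The groups did not overlap for Trim72, higher, and for Slc8a1, Atp2b3, Cacna2d1 and Itpr1, lower, or 5 of 71. Of all genes, this held for 5.5% in either direction, 3.89% as higher and 1.61% as lower. Atp2b3, a calcium pump of the surface membrane, was named after its values were seen.

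Among other regulators of SERCA, all 3 tested genes were above 0 without passing, where 6464 of all 11878 genes were above 0. Arln, listed as 1810037I17Rik and coding for another-regulin, stood at 0.25 (adjusted p = 0.453). Strit1, listed as Gm34302 and coding for the SERCA activator DWORF, stood at 0.32 (adjusted p = 0.783). The muscle inhibitor Mrln, named to complete the group, stood at 0.10. In the voltage sensor complex all 5 tested members were below 0, with a median of -0.13, where 5414 of all 11878 genes were below 0. Cacna2d1, its alpha-2/delta subunit, stood at 80.4 ± 6.44 FPKM under the WT label and 67.5 ± 4.55 under the KO label (SD, n = 4; -0.25, adjusted p = 0.357), and Cacng1, its gamma subunit, at -0.22 (adjusted p = 0.528). In the lumen and junction list 4 of 11 were above 0 and 7 below, with Asph, the gene of junctin, at -0.14 and Jph2 at -0.23.

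Surface and mitochondrial exchangers lay on opposite sides of 0. Slc8a1, the sodium-calcium exchanger of the surface membrane, stood at 7.30 ± 0.904 FPKM under the WT label and 5.24 ± 0.611 under the KO label (-0.44, SE 0.11, adjusted p = 0.347), and Slc8b1, that of mitochondria, at 6.11 ± 0.353 and 8.31 ± 1.43 (0.40, adjusted p = 0.353). Itpr1, an inositol trisphosphate receptor, stood at 23.1 ± 2.90 and 17.2 ± 1.58 FPKM (-0.41, adjusted p = 0.347), and S100a1, a calcium sensor that binds the ryanodine receptor and SERCA, had a log2 fold change of 0.43 (SE 0.11, adjusted p = 0.347). Of the mitochondrial uptake genes, Micu2 (0.24) and Smdt1 (0.17, joined with Fam109b) did not pass, nor did the T-tubule genes Trim72 (0.24) and Cav3 (0.25).

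Among readers of calcium, 2 genes passed without KO replicate 1, the only ones of the 71, where 1.04% of all genes passed and 0.942% did so as higher. Myoz2, calsarcin-1, a calcineurin-binding protein of slow fibres, stood at 64.3, 52.1, 89.2 and 74.5 FPKM in WT replicates 1 to 4 and at 60.4, 160, 195 and 187 FPKM in KO replicates 1 to 4 (log2 fold change 0.99, adjusted p = 0.411, and 1.38, adjusted p = 0.0127, without KO replicate 1). Rcan2, a regulator of calcineurin named after its values were seen, stood at 16.5 to 19.0 FPKM under the WT label, 15.9 in KO replicate 1 and 26.9 to 28.2 in the other 3 (0.42, adjusted p = 0.454, and 0.61, adjusted p = 0.0116, without KO replicate 1). Both showed the split of Casq2, with KO replicate 1 at or below the middle of the WT range. Nfatc3 stood at -0.18 (adjusted p = 0.440).

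**Figure D4:**
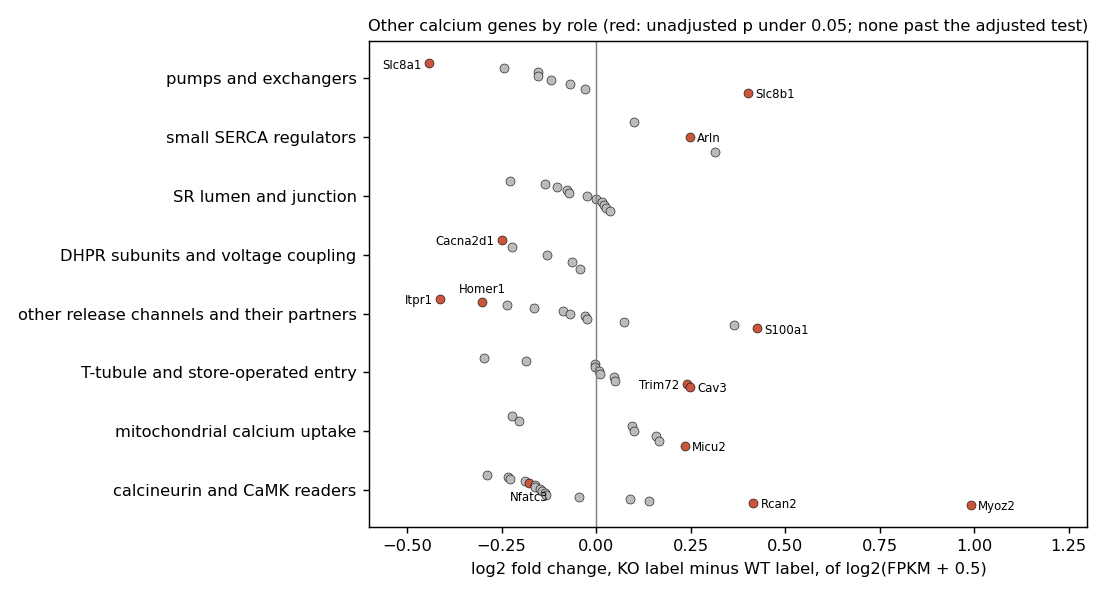
Log2 fold change (KO label minus WT label, horizontal axis) of the 71 tested genes of the wider calcium list, 1 point each, in rows by role, with those at an unadjusted p under 0.05 in red and named. Myoz2 lies farthest from 0, at 0.99. All 5 genes of the voltage sensor complex lie below 0, as do 5414 of all 11878 genes tested.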

How the data were processed

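RNA-seq of quadriceps from 8 mice was compared between 4 libraries labelled WT and 4 labelled KO. Per the labels, ribosomal RNA was removed, mRNA was captured by its poly(A) tail, and libraries were sequenced as paired reads of 150 bases to a stated 50 M read pairs. The authors deposited 1 table of FPKM per library, per the file headers. The submitters' processing notes name the build mm10, the aligners Bowtie2 2.2.6 and TopHat2 2.1.1, Cufflinks 2.2.1, and FastQC. Annotation, filters and strand setting are not given in the sources used here. The steps of low FPKM values in single-transcript genes gave a rough depth of 38.2 to 60.3 M fragments per library. No counts are given, so no counting interval is either.

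Entries without a name (2379 of 46036, carrying 65.8% to 93.2% of the summed FPKM) were left out. For the 344 repeated names the entry with the highest mean was used. Genes averaging 1 FPKM or more over the 8 libraries (11878) were tested as log2(FPKM + 0.5), which understates changes of scarce genes such as Pln, with limma 3.58.1 in R 4.3.3 (genotype alone, mean trend, two-sided, Benjamini-Hochberg, 0.05). Of these, 185 were listed at 0 in some library. Ratios were compared by exact permutation with Python 3.11.15. The fit was tested on simulated data. Loci are those deposited and can take in a neighbouring gene. Locus starts are printed counting from 1.

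Named were Mss51, the 10 genes, the 2 members of each role group of the wider list with the smallest p, the genes past a test, and the 3 genes nearest in pattern to Atp2a2, Casq2, Pln and Pvalb. Outside this rule stand Atp2b3, Mrln and single marker genes, which were named with their values known. Markers were looked up for 12 cell or fibre types. The endothelial, adipocyte, nerve, tendon and macrophage lists are given in the closing part. The members and lists were chosen with earlier results of these data known. Alternatives were other pseudocounts, filters, scalings and variance models, a block for the replicate number, and fits that leave out 1 library.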

Additional observations from a re-analysis of the deposited data

Results flagged for a closer look

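Of 62 groups of 4 libraries looked at for a library far from its group, 2 stood out, and chance flags about 1 in 20 such groups. Atp2a1, the fast pump, was at 6599.2 FPKM in KO replicate 2 and listed at 0 in the other 3 libraries labelled KO. Cacna2d1, the alpha-2/delta subunit of the voltage sensor, was at 90.0 FPKM in WT replicate 1, against 76.4 to 78.5 in the other 3 libraries labelled WT.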

How the results depend on the processing

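The number of genes past the adjusted test (limma), 6 in the fit as described, was 123 after rescaling to an equal sum of named genes. With the replicate number as a block it was 0, and leaving out 1 library gave 4 to 124. It was 124 without KO replicate 1 and 10 without KO replicate 2. The rescaled sums rest on Atg7 in KO replicate 4 and Gm22953 in WT replicate 3, each at 0 in the other 7 libraries. Atp2a2 turned to -0.060 after that rescaling and to -0.021 without WT replicate 2, with a range of -0.021 to 0.32 over libraries left out. Pln ranged from 0.65 to 1.04 and Casq2 from 0.72 to 1.40, and each passed the test only without KO replicate 1. The other tested members kept their sign under every alternative run, and a minimum mean of 5 FPKM left out Pln. The median of the wider list was -0.28 after rescaling to named genes, -0.12 after quantile normalization and -0.16 after scaling over genes above 0 in every library, where the medians of all genes were -0.18, -0.01 and -0.07. Its count past the test was 0 to 2 over libraries left out. The log2 ratio of Cacna1s to Ryr1 ranged from -0.061 to 0.036, changing sign. The causes were not tested. Same-numbered libraries did not deviate together (r of -0.07, -0.09, -0.12 and -0.16), so the replicate numbers gave no pairing.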

Other observations

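The summed levels of markers of other cell types overlapped between the labels. The summed FPKM of endothelial markers was 65.0 to 89.0 in libraries labelled WT and 56.7 to 113 in those labelled KO, that of tendon markers 57.2 to 112 and 38.6 to 93.5, that of adipocyte markers 279 to 373 and 242 to 387, that of nerve and Schwann cell markers 72.0 to 92.1 and 74.6 to 99.7, and that of macrophage markers 32.5 to 42.0 and 26.5 to 43.6. The adipocyte sum was carried by Cfd, and its members were uneven. Cfd had a log2 fold change of 0.08, and Adipoq, whose groups overlapped, of -0.51 (adjusted p = 0.474 in limma). Lep, the gene of leptin, stood at 2.29 to 4.40 FPKM in libraries labelled WT, 2.79 in KO replicate 1 and 0.324 to 0.577 in KO replicates 2 to 4 (log2 fold change -1.59, adjusted p = 0.347 in limma, and -2.05, adjusted p = 0.00936, without KO replicate 1). Plin1, which coats lipid droplets, was also below every WT library in KO replicates 2 to 4 (-0.73, adjusted p = 0.450, and -1.003, adjusted p = 0.0960, without KO replicate 1). Of all genes, 4.51% lay below every WT library in KO replicates 2 to 4, and 0.101% passed the adjusted test as lower without KO replicate 1. Lep and Plin1 were named after their values were seen, and their part in the other results was not tested.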
